A study of Arabidopsis thaliana with 13 samples.

Results

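The transcripts described here were those that were lower on every array of rRBr root tips than on any array of Col-0 root tips. A probe set was taken when its highest value on the 7 rRBr arrays lay below its lowest value on the 6 Col-0 arrays. Of the 22746 probe sets tested, 79 (0.347%) met this rule, and 213 met the opposite rule. A single gene was given for 41 of the 79, several genes for 1 and no gene for 37. The members were thus chosen by the measured values of both lines, and for this reason each difference between rRBr and Col-0 of a member is given as a description and supports nothing by itself.

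The rRBr line carries an RNAi construct against RBR under the RCH1 promoter in the Col-0 background, so that the silencing is local to the root meristem, and Col-0 is its wild-type control. Seedlings of both lines were collected at 4, 6 and 10 das without further treatment. The numbers of arrays at 4, 6 and 10 das were 2, 2 and 3 for rRBr and 2, 1 and 3 for Col-0. Every array was hybridised with RNA of pooled, dissected root tips, which hold many cell types, so that fewer cells of a type and less RNA per cell cannot be told apart. The study's methods count das from sowing and the labels count the days from stratification. RBR itself was not analysed by name here, because the annotation used pairs no probe set with it alone. The study lists RBR among the genes lower in rRBr on these arrays, and a probe set without a gene given here may be that of RBR.

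RBR is the plant homologue of the retinoblastoma tumour suppressor. It binds E2F transcription factors and holds back genes of S-phase entry, and around the quiescent centre of the root it limits the division of stem cells. D-type cyclins with their kinases phosphorylate RBR, which frees E2FB, whereas E2FA stays bound to RBR.

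The 79 probe sets spanned a wide range of differences. The median difference between rRBr and Col-0 was -0.37 on the log2 scale, which is a 1.296-fold lower value in rRBr (Col-0 over rRBr), against a median of -0.01 over all probe sets. The widest difference was -2.11 (At5g24240) and the smallest was -0.07 (At2g11680). A difference of at least 1 was found for 8 members, of at least 0.5 for 26 and of at least 0.25 for 54. At the study's limits (limma, 2 groups by line, adjusted p under 0.01 together with a change of 1.4-fold or more), 17 of the 79 were called lower, beside 0.0747% of all probe sets. Nothing is read from this count, because the fit uses the same values as the rule. The count dropped to 10 when Col-0 6 das replicate 1, Col-0 10 das replicate 2 or Col-0 10 das replicate 3 was left out, and to 11 when this was done for rRBr 6 das replicate 2 or rRBr 10 das replicate 2. With no array of 6 das it was 5.

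**Figure D1:**
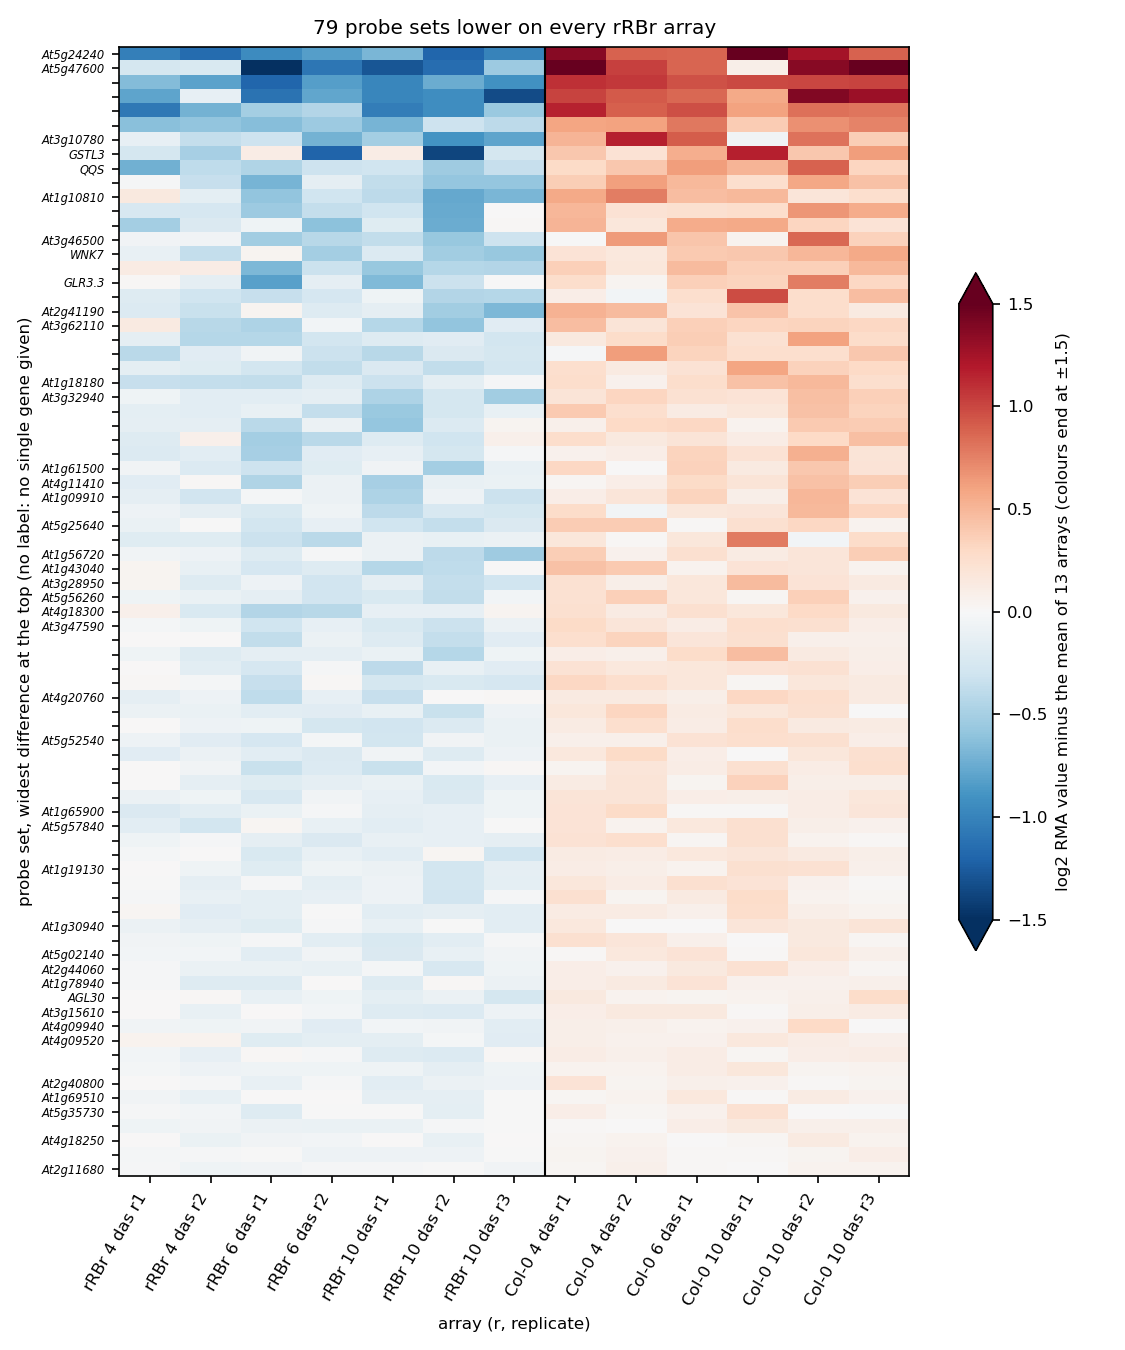
Each row is 1 of the 79 probe sets and each column 1 array, with the 7 rRBr arrays left of the line and the 6 Col-0 arrays right of it. The colour is the log2 RMA value minus the mean of the 13 arrays (blue lower, red higher, colours end at the limits of the bar), and the colour fades from the widest difference at the top (-2.11) to the smallest at the bottom (-0.07).

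The space between the lines was narrow for most members. The gap, which is the lowest Col-0 value minus the highest rRBr value, had a median of 0.05 on the log2 scale and was at least 0.1 for 22 members, at least 0.25 for 11, at least 0.5 for 6 and at least 1 for 3. The gap was 0.01, the smallest step of the deposited values, for 10 members. Just inside the rule, At4g11410 had 6.92 as its highest value on the rRBr arrays, against 6.93 as its lowest on the Col-0 arrays. Just outside it lay 40 probe sets with a gap of 0 and 32 with a gap of -0.01. Among these were GSTU20, with 4.46 as the highest rRBr and the lowest Col-0 value, and ARR15, with 4.60 for both. The limit therefore separates members from near neighbours by less than the spread of either line, which for a member had a median range of 0.35 over the rRBr arrays and 0.30 over the Col-0 arrays.

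At5g24240, which encodes a member of the phosphatidylinositol 3- and 4-kinase family, had the widest difference of all members. The family is named for enzymes that phosphorylate inositol lipids of membranes, and what this member phosphorylates was not examined. The log2 values were 4.78 and 4.65 in rRBr against 7.17 and 6.68 in Col-0 at 4 das, 4.86 and 4.98 against 6.67 at 6 das, and 5.12, 4.61 and 4.80 against 7.36, 7.05 and 6.68 at 10 das. The lines stood apart by a gap of 1.55, wider than the range within either line. The mean was 4.83 ± 0.18 in rRBr (SD, n = 7) and 6.93 ± 0.30 in Col-0 (SD, n = 6), which is a 4.31-fold lower value in rRBr. The difference was -2.21, -1.75 and -2.19 at 4, 6 and 10 das, so that the full difference was already present on the first day.

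WNK7, a protein kinase of the "with no lysine" family, is the other kinase among the members with an assigned role. Its log2 values were 4.96 and 4.71 in rRBr against 5.27 and 5.23 in Col-0 at 4 das, 5.11 and 4.56 against 5.46 at 6 das, and 4.87, 4.55 and 4.50 against 5.47, 5.57 and 5.64 at 10 das. The highest rRBr value lay 0.12 below the lowest Col-0 value. The means were 4.75 ± 0.23 in rRBr and 5.44 ± 0.16 in Col-0 (SD, n = 7 and 6), a 1.61-fold lower value in rRBr. The difference was -0.41, -0.62 and -0.92 at 4, 6 and 10 das. Its change between 10 and 4 das was -0.51 ± 0.24 (SE) and was not called.

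At5g47600 encodes an HSP20-like chaperone, a class of small heat shock proteins that keep unfolded proteins from aggregating. Its log2 values were 5.82 and 5.86 in rRBr against 7.59 and 7.11 in Col-0 at 4 das, 4.27 and 5.00 against 6.96 at 6 das, and 4.80, 4.94 and 5.54 against 6.18, 7.45 and 7.61 at 10 das. The rRBr values lay between 4.27 and 5.86 and the Col-0 values between 6.18 and 7.61, and the gap of 0.32 was narrower than the range within either line. The means were 5.18 ± 0.59 in rRBr and 7.15 ± 0.54 in Col-0 (SD, n = 7 and 6), a 3.93-fold lower value in rRBr.

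None of the other small heat shock transcripts of the list met the rule. Of the 6 further probe sets of the list of small heat shock proteins, 5 had their highest value on rRBr 10 das replicate 1. At5g37670 had 8.64 on this array, against 3.47 to 5.09 on the other 12. At5g47600 had 4.80 there, within its range on the other rRBr arrays. The part of the high heat shock transcripts of this array in any result was not tested, and without this array 86 probe sets met the rule, all 79 members among them.

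At3g10780 encodes a protein of the emp24/gp25L/p24 family, which carries cargo between the endoplasmic reticulum and the Golgi apparatus. The log2 values were 4.93 and 4.69 in rRBr against 5.56 and 6.22 in Col-0 at 4 das, 4.74 and 4.34 against 5.96 at 6 das, and 4.54, 4.15 and 4.26 against 5.00, 5.87 and 5.42 at 10 das. The gap was only 0.07, set by rRBr 4 das replicate 1 and Col-0 10 das replicate 1. The means were 4.52 ± 0.28 in rRBr and 5.67 ± 0.44 in Col-0 (SD, n = 7 and 6), a 2.22-fold lower value in rRBr. Both lines had lower means at 10 das than at 4 das, by 0.49 ± 0.27 in rRBr and 0.46 ± 0.27 in Col-0 (SE), and neither change was called.

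QQS is a gene found only in Arabidopsis thaliana and known to affect the starch content of the plant. Its log2 values were 3.99 and 4.33 in rRBr against 4.99 and 5.11 in Col-0 at 4 das, 4.26 and 4.40 against 5.33 at 6 das, and 4.41, 4.18 and 4.36 against 5.22, 5.59 and 5.03 at 10 das. The gap of 0.58 was wider than the range within rRBr and close to that within Col-0. The means were 4.28 ± 0.15 in rRBr and 5.21 ± 0.22 in Col-0 (SD, n = 7 and 6), a 1.91-fold lower value in rRBr. The difference was -0.89 at 4 das and -0.96 on the last day. On 2 of the arrays the value of QQS lay below the lower quartile of all probe sets.

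Among the members with an assigned role, those of redox chemistry were GSTL3 and At1g18180. GSTL3 is a lambda class glutathione transferase, an enzyme that uses the thiol glutathione. Its log2 values were 6.11 and 5.88 in rRBr against 6.78 and 6.59 in Col-0 at 4 das, 6.49 and 5.17 against 6.92 at 6 das, and 6.49, 5.00 and 6.11 against 7.54, 6.78 and 7.00 at 10 das. Replicates of one day differed by more than 1 within rRBr, at 6 das and again at 10 das. The mean was 5.89 ± 0.60 in rRBr and 6.93 ± 0.33 in Col-0 (SD, n = 7 and 6), a 2.06-fold lower value in rRBr.

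At1g18180, annotated in the study as an oxidoreductase that acts on CH-CH groups, had a smaller and steadier difference. The log2 values were 6.70 and 6.69 in rRBr against 7.31 and 7.11 in Col-0 at 4 das, 6.68 and 6.85 against 7.31 at 6 das, and 6.72, 6.90 and 7.03 against 7.49, 7.53 and 7.30 at 10 das. The difference was -0.52, -0.55 and -0.56 at 4, 6 and 10 das. Both lines were somewhat higher at 10 das than at 4 das, by 0.19 in rRBr and 0.23 in Col-0, and neither change was called.

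GLR3.3, a glutamate receptor-like channel of the plasma membrane that takes part in calcium signals after wounding, had log2 values of 6.25 and 6.10 in rRBr against 6.50 and 6.27 in Col-0 at 4 das. The values were 5.42 and 6.10 against 6.59 at 6 das, and 5.57, 5.91 and 6.23 against 6.57, 7.00 and 6.54 at 10 das. The gap of 0.02 lay between arrays of the same day, rRBr 4 das replicate 1 and Col-0 4 das replicate 2. The difference was -0.21, -0.83 and -0.80 at 4, 6 and 10 das. The change of the difference between 10 and 4 das was -0.59 ± 0.34 (SE) and was not called.

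The members with an assigned role in RNA or transcription were At3g32940 and AGL30. At3g32940 encodes an RNA-binding protein with a KH domain, and had means of 6.59 ± 0.17 in rRBr and 7.13 ± 0.10 in Col-0 (SD, n = 7 and 6). Its rRBr values lay between 6.32 and 6.78, against 7.04 to 7.29 in Col-0, with a gap of 0.26. The difference was -0.37, -0.38 and -0.75 at 4, 6 and 10 das. AGL30, a MADS-box transcription factor, had means of 5.13 ± 0.09 in rRBr and 5.33 ± 0.09 in Col-0 (SD, n = 7 and 6), with a difference of -0.09 at 4 das and -0.30 at 10 das. At2g44060 (LEA26), a late embryogenesis abundant protein of a class known from seeds and dry tissue, had 11.25 ± 0.08 in rRBr and 11.45 ± 0.07 in Col-0 (SD, n = 7 and 6), a 1.15-fold lower value in rRBr.

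For the other 30 members with 1 gene, the annotation used gave a locus name alone, and no role is stated for them. Among these, 4 were within the 12 widest differences of all named members. At1g10810 had log2 values of 5.72 and 5.43 in rRBr against 6.14 and 6.34 in Col-0 at 4 das, 4.98 and 5.28 against 6.04 at 6 das, and 5.18, 4.80 and 4.89 against 6.06, 5.76 and 5.83 at 10 das. It was lower at 10 das than at 4 das in both lines. At3g46500 had 4.63 and 4.63 in rRBr against 4.68 and 5.32 in Col-0 at 4 das, 4.16 and 4.27 against 5.10 at 6 das, and 4.31, 4.11 and 4.37 against 4.73, 5.54 and 5.03 at 10 das. The space between the lines of At3g46500 rested on Col-0 4 das replicate 1, which was 0.05 above both rRBr arrays of that day.

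At2g41190 had log2 values of 7.16 and 7.04 in rRBr against 7.89 and 7.84 in Col-0 at 4 das, 7.41 and 7.18 against 7.58 at 6 das, and 7.23, 6.85 and 6.70 against 7.80, 7.63 and 7.50 at 10 das. Its difference was smallest on the middle day, with -0.77, -0.28 and -0.72 at 4, 6 and 10 das. At3g62110 had 6.88 and 6.33 in rRBr against 7.20 and 6.93 in Col-0 at 4 das, 6.28 and 6.70 against 7.10 at 6 das, and 6.31, 6.15 and 6.57 against 7.06, 7.08 and 7.05 at 10 das. The Col-0 arrays of At3g62110 lay close together (SD 0.09), and the rRBr arrays were spread more widely (SD 0.26).

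**Figure D2:**
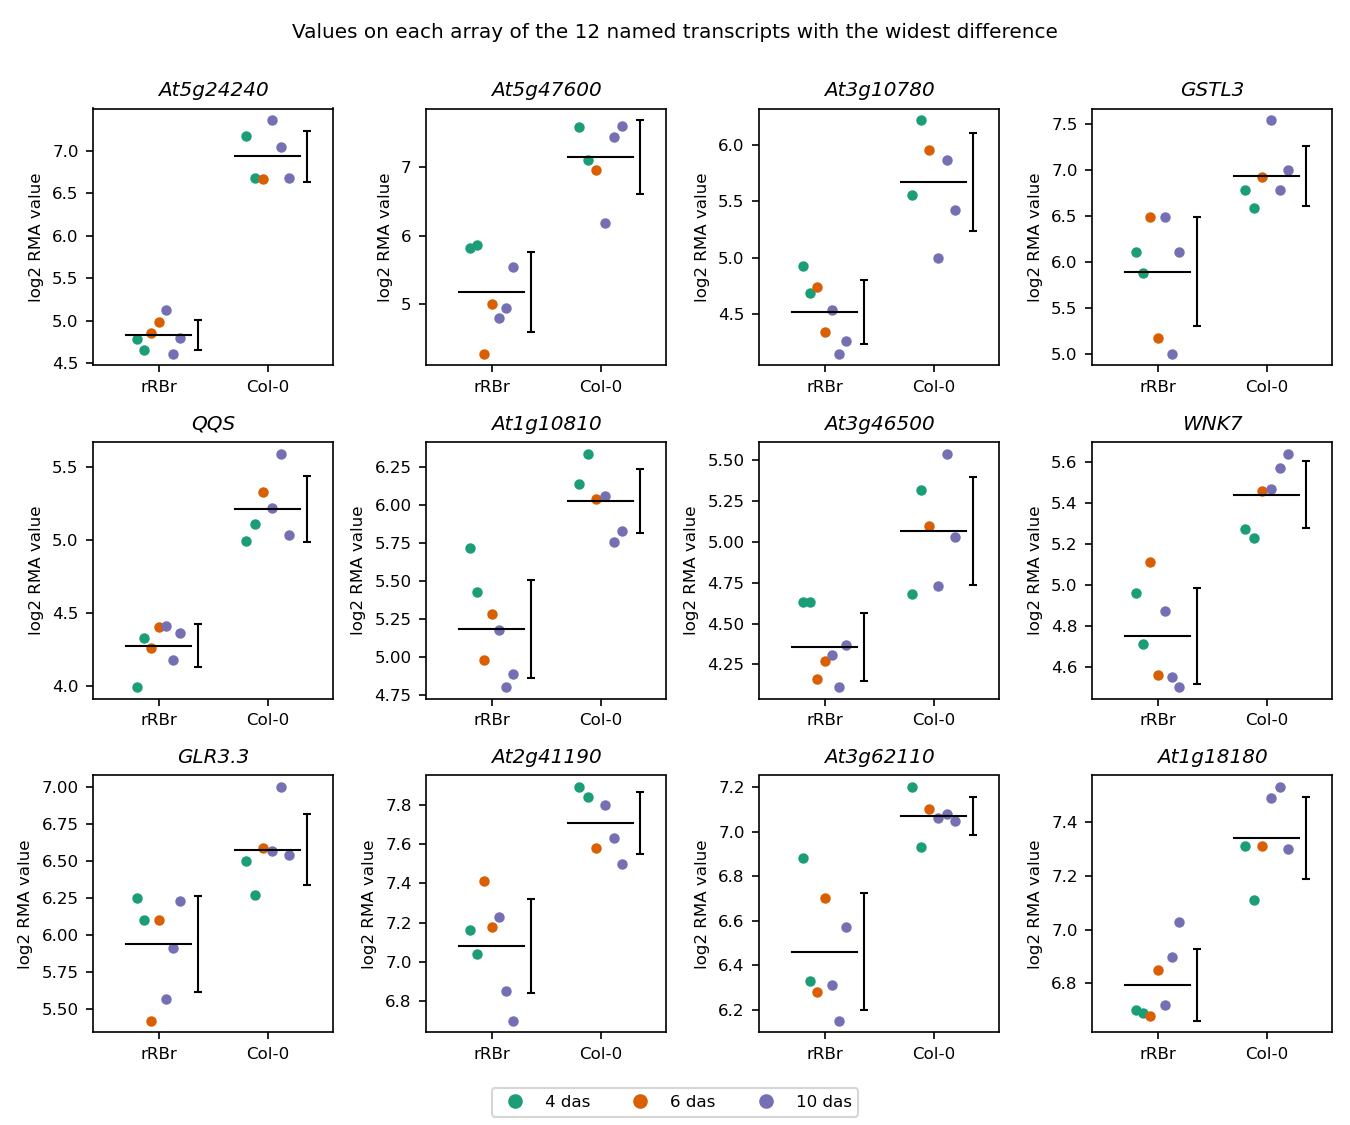
Log2 RMA values on each array of the 12 members of 1 gene with the widest difference, with rRBr (7 arrays) left of Col-0 (6 arrays) in each panel and the day given by the colour. Horizontal lines are means and error bars SD, the vertical axes differ between panels and do not start at 0, and the gap between the lines runs from 0.02 (GLR3.3) to 1.55 (At5g24240).

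The remaining 26 loci without a role had differences between -0.07 and -0.44. A difference of more than 0.4 in size was found for 7 of them, At1g61500, At4g11410, At1g09910, At5g25640, At1g56720, At1g43040 and At3g28950, with -0.44 to -0.41. For a further 11 it lay between -0.38 and -0.20. These were At5g56260, At4g18300, At3g47590, At4g20760, At5g52540, At1g65900, At5g57840, At1g19130, At1g30940, At5g02140 and At1g78940. The last 8 were At3g15610, At4g09940, At4g09520, At2g40800, At1g69510, At5g35730, At4g18250 and At2g11680, with -0.19 to -0.07, at most a 1.14-fold lower value in rRBr. At1g30940 is read by a probe set whose suffix marks probes shared between transcripts. At4g20760 has a second probe set, which averaged 6.60 ± 0.10 in rRBr and 6.76 ± 0.11 in Col-0 (SD, n = 7 and 6), a difference of -0.16 ± 0.06 (SE).

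The differences of the 37 members without a gene lay between -1.89 and -0.09. The widest were those of probe sets 246422_at, 246530_at and 251219_at. Probe set 246422_at had 5.74 to 6.28 on the rRBr arrays, against 7.88 to 8.02 on the Col-0 arrays, and its gap of 1.60 was wider than that of At5g24240. Probe set 246530_at had 3.83 to 5.05 on the rRBr arrays, against 5.74 to 6.57 on the Col-0 arrays. Probe set 251219_at had 5.25 to 5.89 on the rRBr arrays, against 6.93 to 7.48 on the Col-0 arrays. The member with several genes had a difference of -0.27.

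The level of a probe set depends on its probes, so that levels were read only against the quartiles of each array. At1g78940, At4g09940, At4g18250 and At2g11680 stayed below the lower quartile on all arrays. These 4 members are 5.06% of the 79, against 18.6% of all probe sets. On all arrays 39 members (49.4%) were above the median, against 44.4% of all probe sets, and 16 (20.3%) were above the upper quartile, against 19.9% of all probe sets. The named members above the upper quartile on all arrays were At3g47590, At1g19130, At2g44060, At3g15610, At1g69510 and At5g35730, none with a difference beyond -0.36.

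The difference between the lines was present on each of the 3 days for every member, as the rule requires, but its size varied. The median difference of the 79 was -0.28, -0.35 and -0.41 at 4, 6 and 10 das, beside 0.02, -0.03 and -0.02 for all probe sets on the same days. The difference was widest at 10 das for 37 members, at 6 das for 30 and at 4 das for 12. It was smallest at 4 das for 53 members, at 6 das for 21 and at 10 das for 5. It widened at each step for 27 members and narrowed at each step for 1. Between 4 and 10 das it was wider on the later day for 63 of the 79, and for 33 of the 41 with 1 gene. The single Col-0 array at 6 das makes the values of that day the least precise.

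**Figure D3:**
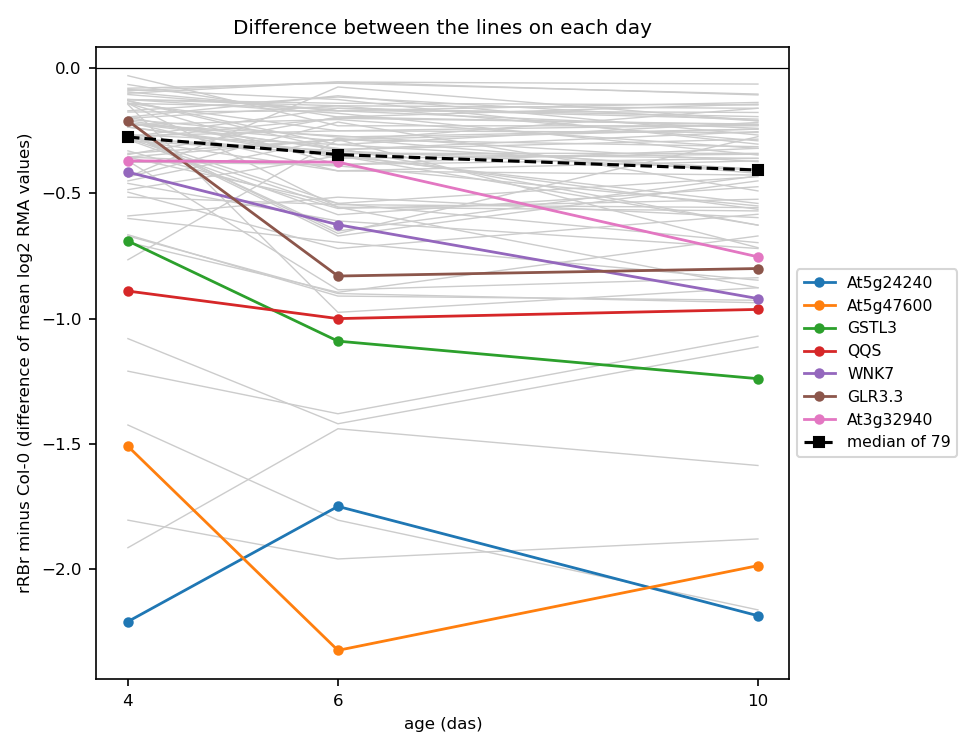
Difference of the mean log2 RMA values, rRBr minus Col-0, at 4, 6 and 10 das (horizontal axis to scale) for each of the 79 members (grey), for 7 named members (colours) and for the median of the 79 (black squares). The median was -0.28, -0.35 and -0.41 on the 3 days. At 10 das At5g24240 and QQS were near their value at 4 das, and At5g24240 was closer to 0 at 6 das (-1.75). WNK7, GSTL3 and GLR3.3 were further from 0 at 10 das than at 4 das.

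Within each line the days were compared with a test. The rule did not use that contrast directly. It was applied to the same values, however, and keeps those of a line from spreading across the other. The shares of members beside all probe sets are therefore only a description, in rRBr and in Col-0. In rRBr, 10 against 4 das called 0 of the 79 (limma, 6 groups by line and day, adjusted p under 0.05), beside 0.0747% of all probe sets, all of which were higher at 10 das. At an unadjusted p under 0.05 there were 8 members (10.1%), all lower at 10 das, beside 5.26% of all probe sets in either direction and 2.58% that were lower. The median change of the members was -0.09, beside -0.02 for all probe sets, and 61 members (77.2%) were below 0, beside 57.1% of all probe sets. At1g10810 had the smallest p of the named members in this comparison, with a change of -0.62 ± 0.16 (SE, limma, adjusted p = 0.3841).

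In Col-0, 10 against 4 das also called 0 of the 79, beside 0.0967% of all probe sets. At an unadjusted p under 0.05 there were 2 members (2.53%), beside 4.61% of all probe sets. The median change was 0.02, beside 0.01 for all probe sets, and 33 members (41.8%) were below 0, beside 44.7% of all probe sets.

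The change of the difference itself between 10 and 4 das was called for 0 of the 79, beside 0.0044% of all probe sets (1 probe set, which was higher). At an unadjusted p under 0.05 there were 4 members (5.06%), all with a more negative difference at 10 das, beside 3.06% of all probe sets in either direction and 1.19% with a more negative one. The median was -0.09, beside -0.03 for all probe sets, and 63 members (79.7%) were below 0, beside 58.2%. At3g32940 was the named member with the smallest p, with a change of -0.38 ± 0.14 (SE, limma, adjusted p = 1). No single member passed the test for a wider difference at 10 das. The change is made of the differences by which the members were chosen, so that their shares beside all probe sets are only a description.

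**Figure D4:**
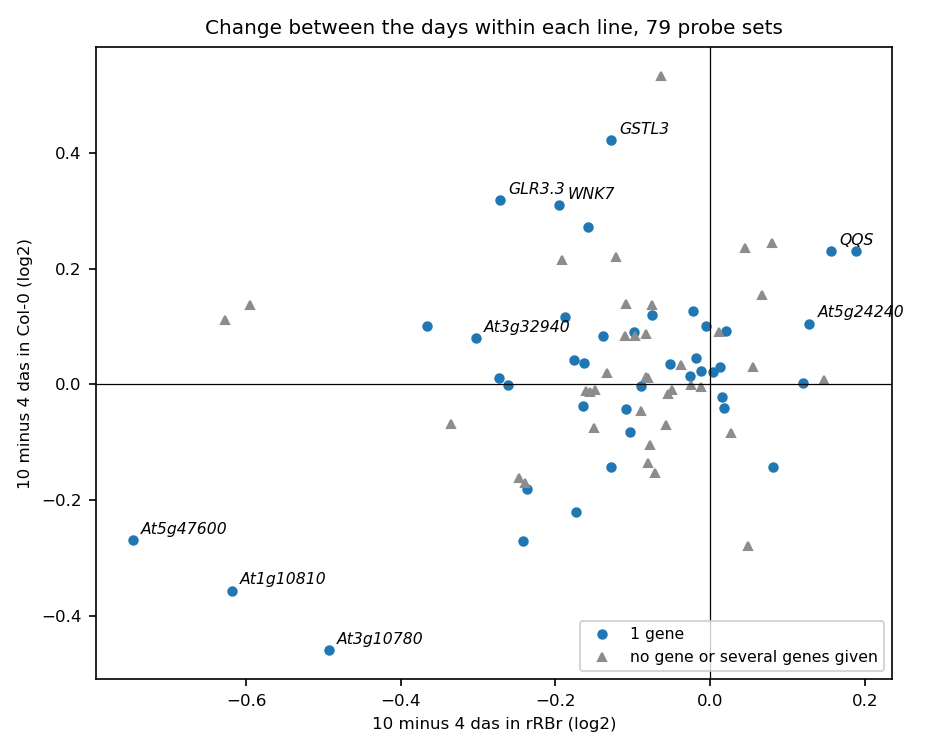
Change of the mean log2 RMA value between 10 and 4 das in rRBr (horizontal axis) and in Col-0 (vertical axis) for each of the 79 members, with lines at 0. In rRBr 61 members lie left of 0 and in Col-0 33 lie below 0, and none of the changes was called.

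Some arrays weighed more on the members than others. The highest rRBr value of a member was on rRBr 4 das replicate 1 for 32 of the 79, and on each of the other rRBr arrays for 5 to 11 (of tied arrays, the first was counted, which touched 17 members). The lowest Col-0 value was on Col-0 4 das replicate 2 for 20 members, on Col-0 10 das replicate 1 for 19 and on each of the other Col-0 arrays for 5 to 13. Without Col-0 10 das replicate 1 the rule took 166 probe sets, and without rRBr 4 das replicate 1 it took 118.

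The array medians over all probe sets lay between 5.96 and 6.06, and no pair of arrays had identical values. Markers of root tissues with a probe set of their own were few. The root hair expansins EXPA7 and EXPA18 were the only 2 of 8 root hair markers that had one. Their mean was 8.80 to 8.89 on rRBr 6 das replicate 1, rRBr 10 das replicate 1 and Col-0 10 das replicate 1, and 4.69 to 7.41 on the other arrays, so that both lines held arrays with high and with low root hair transcripts. CR4 of the meristem list was between 4.74 and 5.38 on all arrays, and RCA of leaf photosynthesis between 4.39 and 5.53. The lists of root cap, of xylem and phloem and of endodermis had no probe set of their own. Without the 3 arrays with high root hair transcripts the median difference of the members was -0.33. The part of root hair transcripts in the differences was not tested.

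**Figure D5:**
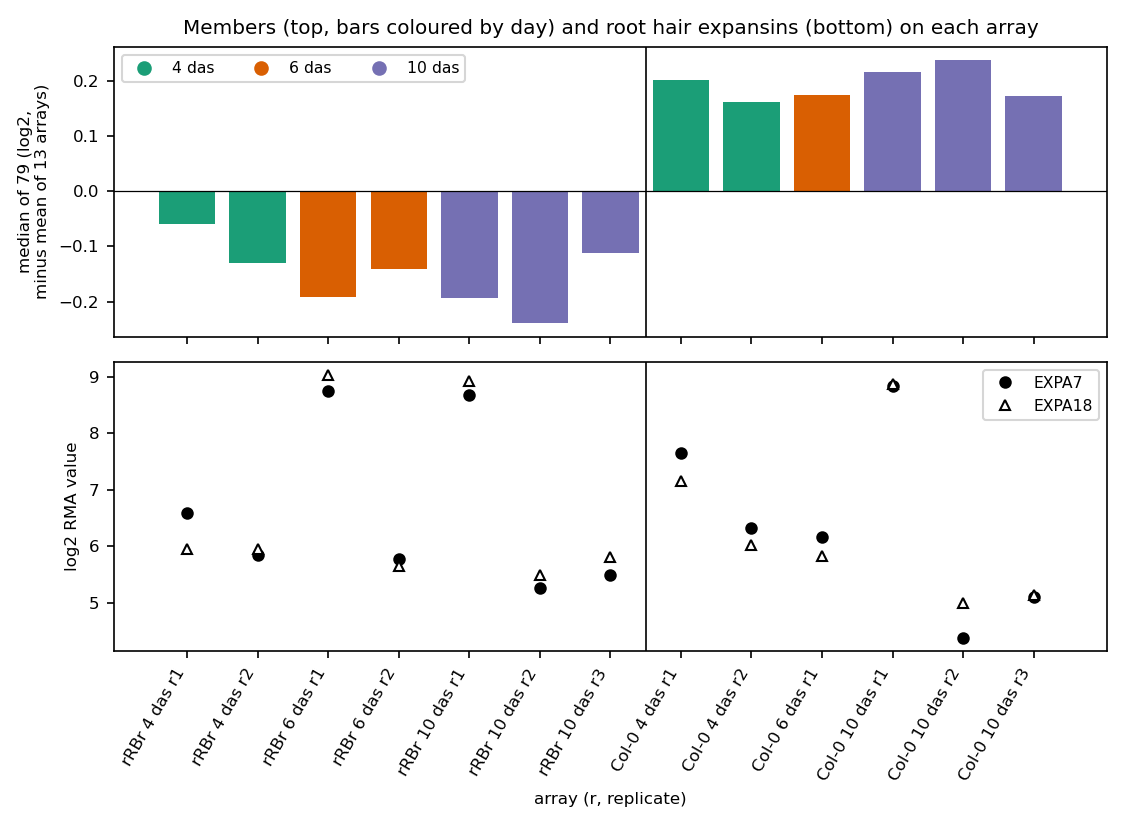
Top, median over the 79 members of the log2 RMA value minus the mean of the 13 arrays, for each array, with bars from 0 coloured by day. Bottom, log2 RMA values of EXPA7 and EXPA18 on the same arrays, with rRBr left of the line and Col-0 right of it, and the 3 arrays with a mean of 8.80 to 8.89 in both lines.

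The families of the named members were compared with the fit of 2 groups. Outside the rule, 18 probe sets stood for genes of the WNK kinases, phosphatidylinositol 4-kinases, small heat shock proteins, p24 cargo receptors and starch metabolism. The D-type cyclins were not analysed here, because the annotation used gives none of them a probe set of its own. The study lists D-type cyclins of the CYCD4 group among the genes lower in rRBr on these arrays, and probe sets without a gene may stand for them. All 17 probe sets called lower in the whole series were members, so that none outside the rule could be called lower. Of the 18, 0 were called in either direction, beside 0.418% of all probe sets, members included, and 1 had an unadjusted p under 0.05, beside 10.2%. Their median difference was 0.03. The largest differences per family were 0.15 for the WNK kinase At5g55560, -0.10 for the phosphatidylinositol 4-kinase At1g26270, 0.53 for the small heat shock gene At5g37670, -0.05 for the p24 gene At1g26690 and -0.17 for DPE1 of starch metabolism. None of these was called, and the value of At5g37670 rests on rRBr 10 das replicate 1. At5g55560, the probe set with the unadjusted p under 0.05, lay below the lower quartile on all arrays.

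The named members were spread over the genome. Chromosomes 1 to 5 held 13, 5, 8, 6 and 9 of the 41, beside 25.9%, 16.5%, 20.5%, 14.6% and 22.5% of all genes that a probe set reads alone, and the members' shares were 31.7%, 12.2%, 19.5%, 14.6% and 22.0%. The closest pair was At4g18250 and At4g18300, 6 genes apart, and every other pair on a chromosome was at least 44 genes apart. Genes directly before or after a named member were read by 35 probe sets. Of these, 0 were called, beside 0.418% of all probe sets, members included, and 3 (8.57%) had an unadjusted p under 0.05, beside 10.2%. None of the 35 is a member, so that none could be called lower. Their median difference was -0.02, with a range of -0.28 to 0.15. The widest was that of IAA30, beside At3g62110, with means of 3.99 in rRBr and 4.28 in Col-0.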

How the data were processed

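RNA of dissected root tips was hybridised to Affymetrix ATH1 arrays. The authors made the deposited log2 values by RMA in the affy package, which corrects background, makes the arrays equal in distribution by quantiles and gives 1 value per probe set and array, with no pooling of replicates. Versions are not given in the sources used here. Precision is limited by how many arrays there were.

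The deposited values entered limma 3.58.1 (R 4.3.3) unchanged, after 64 control probe sets of 22810 were left out. Figures were drawn with matplotlib 3.10.9. A table of the platform gave the genes of probe sets, and 40 of 41 named members matched RefSeq (TAIR10.1). Differences were fitted with lmFit and eBayes with Benjamini and Hochberg correction over 22746 probe sets, as 2 groups by line (adjusted p under 0.01, fold change of at least 1.4) and as 6 groups by line and day (adjusted p under 0.05). The spread was estimated over all arrays of a fit together, so that the lone Col-0 array of 6 das is taken to vary as the rest do. Fits were tested on simulated data. The p-values set a difference against the spread between these samples.

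All 41 members of 1 gene were named, the 12 with the widest difference with all values. The members, lists and rules were chosen with earlier results of these data known. Replicate numbers were checked for pairing. The study's methods state that both lines were germinated at the same time in repeated experiments, and do not tie replicate numbers across the lines. After removal of group means, same-numbered arrays of the 2 lines correlated with 0.18 and 0.18 at 4 das (1 independent value). At 10 das they correlated with 0.79, 0.60 and 0.63. There, rRBr replicate 2 with Col-0 replicate 3 (0.56) and rRBr replicate 3 with Col-0 replicate 2 (0.41) were also above 0. The numbers were taken to pair the samples only in an alternative fit, with the number as a block. The fits behind the results above had no block. Alternatives changed the scaling, the filter, the arrays, the variance model and the limits.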

Additional observations from a re-analysis of the deposited data

Results flagged for a closer look

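In all, 82 sets of a named member and a line were looked at. In 4 of them, 1 array lay far from the others of its line, where chance gives about 1 in 20 for unselected values. All 4 were high values on Col-0 arrays. The rule leaves out probe sets with a low Col-0 or a high rRBr value that crosses the other line. Neither the count nor the direction can therefore be set against chance. At4g18250 had 3.76 on Col-0 10 das replicate 2, with 3.64 to 3.68 on the other Col-0 arrays. At4g09940 had 3.84 on the same array, with 3.54 to 3.62 on the others. At3g28950 had 8.46 on Col-0 10 das replicate 1, with 8.07 to 8.21 on the others. At2g40800 had 8.20 on Col-0 4 das replicate 1, with 8.01 to 8.07 on the others. A high Col-0 value cannot set the gap to rRBr, which is taken from the lowest Col-0 value.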

How the results depend on the processing

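The rule took 98 probe sets after median centring of each array (69 of the 79 among them) and 87 after a further quantile normalization (62 of the 79). Leaving out 1 array gave 86 to 166, without the 6 das arrays 139 and without the 3 arrays with high root hair transcripts 221, since fewer arrays make the rule easier to meet. A gap of at least 0.1 left 22 members and of at least 0.25 left 11. The count called lower over all days, 17, was 10 to 19 when 1 array was left out, with 10 without Col-0 6 das replicate 1, Col-0 10 das replicate 2 or Col-0 10 das replicate 3, and 11 without rRBr 6 das replicate 2 or rRBr 10 das replicate 2. It was 5 without the 6 das arrays, and 53 at an adjusted p under 0.05 with no limit on the fold change. The median difference at 6 das was -0.39 to -0.32 when 1 array was left out, with -0.39 without rRBr 6 das replicate 2, and that at 10 das was -0.36 without the 3 arrays with high root hair transcripts. With array weights, 10 against 4 das in rRBr called 2 members (2.53%) instead of 0, At1g10810 (-0.69 ± 0.12, SE, limma, adjusted p = 0.0476) and probe set 252864_at, with 17 (21.5%) at an unadjusted p under 0.05. The same weighted fit called 0.479% of all probe sets, with 9.02% at an unadjusted p under 0.05. The members were chosen by the values in this fit, so that these shares are only a description. A replicate block (the number as a factor) also called 17 over all days, and the block changed no other call. The cause of these changes was not tested. Counts of families and neighbouring genes, from which the members were left out, stayed at 0 under each alternative, and no direction was reversed.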
